A study of Oryctolagus cuniculus with 6 samples.

Results

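The genes described here encode the junctions that hold epithelial cells together and seal the space between them: the claudins, the other tight junction proteins, the connexins of gap junctions, and the cadherins and plaque proteins of desmosomes. They were picked by gene symbol, with earlier results of these data known. Of the 23364 probe sets of the array, 15795 carried 1 gene symbol, and 55 of these matched a junction gene, for 54 genes (CLDN22 had 2 probe sets). They comprised 23 claudin, 5 other tight junction membrane, 2 tight junction plaque, 15 connexin, 5 desmosomal cadherin and 5 desmosomal plaque probe sets. CDH1, CXADR and MARVELD3 were sought by name and had no probe set with a single annotation entry. The probe set of CXADR is listed under 2 gene identifiers and is described at the end.

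Conjunctiva came from adult male Dutch Belted rabbits whose nictitating membranes had been removed before the study, in both groups. In the DED group, concanavalin A (ConA, a lectin from jack beans that stimulates T cells) was injected into the periorbital lacrimal glands on days 1, 8 and 14 and the tissue was taken on day 18. The naive group is labelled as healthy and normal, and no sham injection is mentioned for it, so an effect of the injection itself and of ConA cannot be told apart. Each group had 3 arrays, each hybridized with RNA pooled from several rabbits (3 animals by the labels, fewer by the methods of the study), from full-thickness tissue with Tenon's capsule. Values are log2 expression, in which a step of 1 is a doubling. A gene was called when its adjusted p was under 0.05 in limma over all probe sets.

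Tight junctions are belts of strands near the surface of an epithelium. Claudins form the strands: some seal the gap between cells, and others make pores for ions or water. Occludin and the JAM proteins lie in the same membrane, and cytoplasmic plaque proteins such as ZO-1 tie the strands to actin. Desmosomes bind cells mechanically, with desmogleins and desmocollins outside and plakoglobin, plakophilins and desmoplakin linking them to keratin filaments, while connexins form channels through which small molecules pass from cell to cell. On the ocular surface tight junctions limit the passage of tear solutes into the tissue.

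Expression of DSG3, GJB2, CLDN1 and CLDN8 rose in DED, and that of PKP2 and CLDN3 fell. These 6 were 10.9% of the 55 junction probe sets, where 7.1% of all probe sets were called. By direction, 7.27% of the junction probe sets were higher (4.41% of all) and 3.64% were lower (2.69% of all). The median log2 difference between DED and naive was 0.00 over the junction probe sets and -0.01 over all probe sets, and 28 of the 55 differences were above 0. The junction genes thus went both ways, and their share of calls was close to that of the whole array. In full-thickness tissue, fewer cells of a type and less RNA per cell cannot be told apart.

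**Figure D1:**
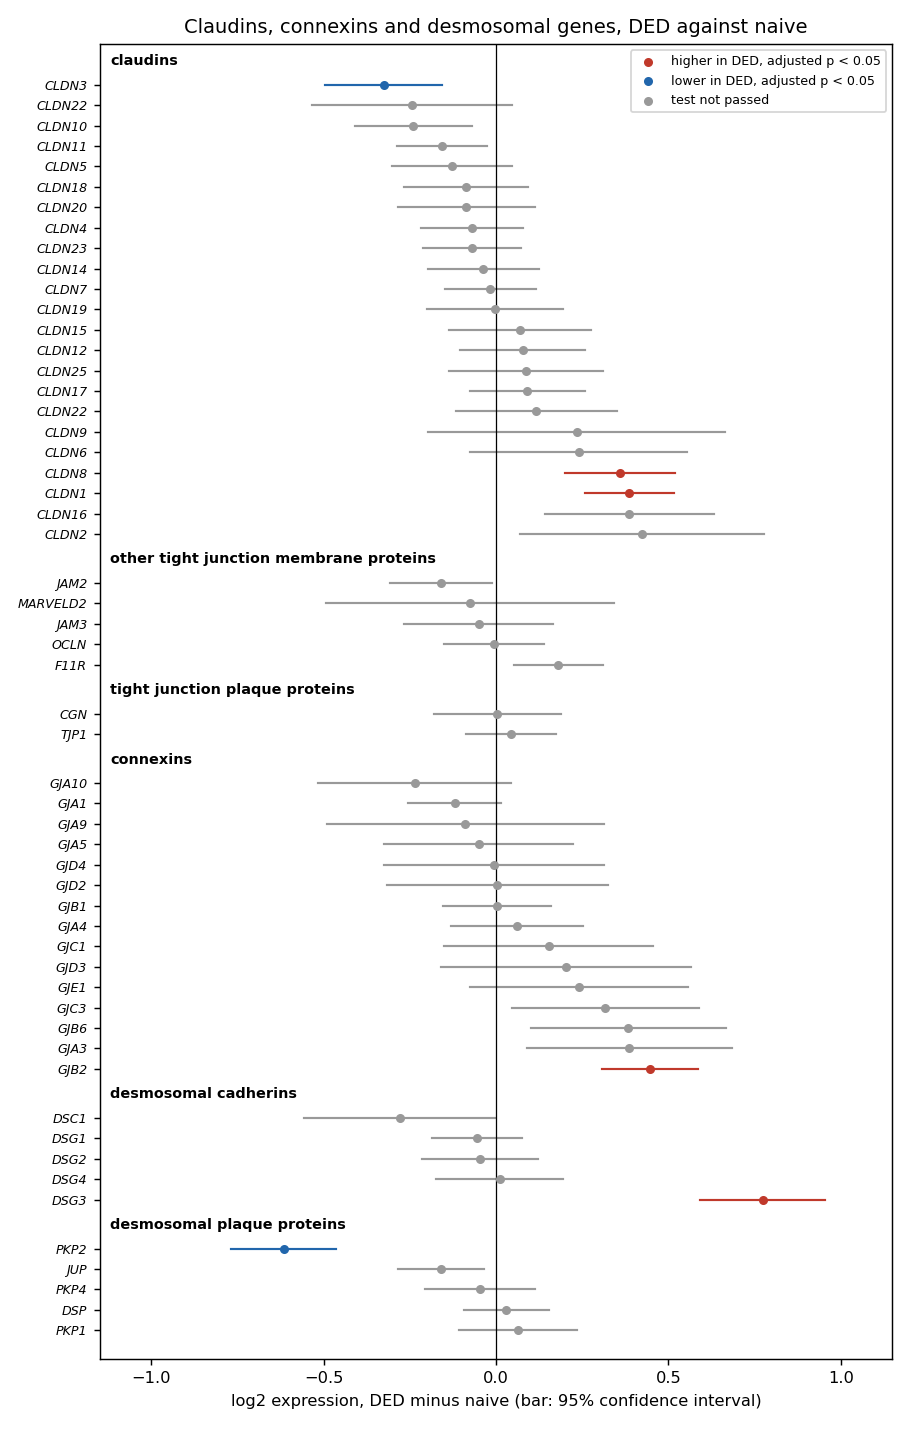
Difference in log2 expression, DED minus naive, for each of the 55 junction probe sets (x axis), grouped by role and ordered by difference; points are fitted differences, bars their 95% confidence intervals from limma, red and blue points passed the test. DSG3 at 0.77 and PKP2 at -0.62 stand at the ends, and most intervals cross 0.

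Among the desmosomal cadherins, the genes of desmogleins and desmocollins, DSG3 rose and the other 4 measured did not pass the test. Desmoglein 3 joins cells of stratified epithelium, in skin those of the deep layers, and is the autoantigen of pemphigus vulgaris. DSG3 was at 6.82, 6.60 and 6.70 on the naive arrays and at 7.49, 7.53 and 7.42 on the DED arrays. The lowest DED array was thus 0.60 above the highest naive array, the widest gap among the 55 probe sets. The difference was 0.77 (SE 0.08, a 1.71-fold rise; limma, adjusted p = 0.00251).

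DSG1, the desmoglein of the upper layers in skin, was at 11.57 ± 0.02 in naive and 11.51 ± 0.04 in DED conjunctiva (SD, n = 3 arrays), and DSG2, the form of simple epithelia and heart, at 7.87 ± 0.01 and 7.83 ± 0.11. Their differences were -0.06 (95% confidence interval -0.19 to 0.07) and -0.05 (-0.22 to 0.12). DSG4, known from the hair follicle, differed by 0.01 and DSC1, a desmocollin of the upper epidermis, by -0.28 (adjusted p = 0.222), with overlapping groups. Taken on each array, DSG3 minus DSG1 had a mean of -4.86 in naive and -4.03 in DED conjunctiva. DSG3 thus stayed below DSG1, and the gap narrowed by 0.83. All 3 DED arrays lay above all 3 naive arrays in this difference. An exact permutation test of it (two-sided) gave p = 0.1, the smallest that 3 against 3 arrays allow. This pair was chosen after the values were seen, as were the 3 other pairs of genes compared in this way. Their separation thus follows from the choice, and these tests add no support to the calls. In the RefSeq gene order of assembly mOryCun1.1 these genes are direct neighbours in the order DSC1, DSG1, DSG4, DSG3 and DSG2, so the gene that rose lies between ones for which no change was called.

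In the desmosomal plaque, PKP2 fell. Plakophilin 2 is the plakophilin of heart and of simple epithelia, and also occurs in deep layers of stratified ones. Its values were 7.51, 7.62 and 7.46 in the naive group and 6.93, 6.90 and 6.91 in DED. The 3 DED arrays lay within 0.03 of each other, and the groups were 0.53 apart at their closest. PKP2 fell by 0.62 on the log2 scale (SE 0.06, 1.53-fold; limma, adjusted p = 0.00298).

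JUP, which encodes plakoglobin, a protein shared by desmosomes and adherens junctions, was at 11.14, 11.10 and 11.10 in naive and at 10.96, 10.95 and 10.95 in DED conjunctiva. All DED arrays were below all naive arrays, by a small amount: the difference was -0.16 (SE 0.05; adjusted p = 0.135). It passed the test in the methods' one-way analysis of variance and with an intensity trend in eBayes (adjusted p = 0.00304 to 0.283 over 16 alternatives). DSP, the desmoplakin that anchors keratin, differed by 0.03 (95% confidence interval -0.09 to 0.15), PKP1, the plakophilin of upper layers, by 0.06 (-0.11 to 0.23), and PKP4 by -0.05 (-0.21 to 0.11). The groups did not overlap for DSP, but only 0.01 separated them, which is the rounding of the table. On each array, PKP2 minus PKP1 had a mean of -1.23 in naive and -1.91 in DED, a shift of -0.68. The groups did not overlap (exact permutation test, p = 0.1), which follows from choosing the pair after the values were seen.

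**Figure D2:**
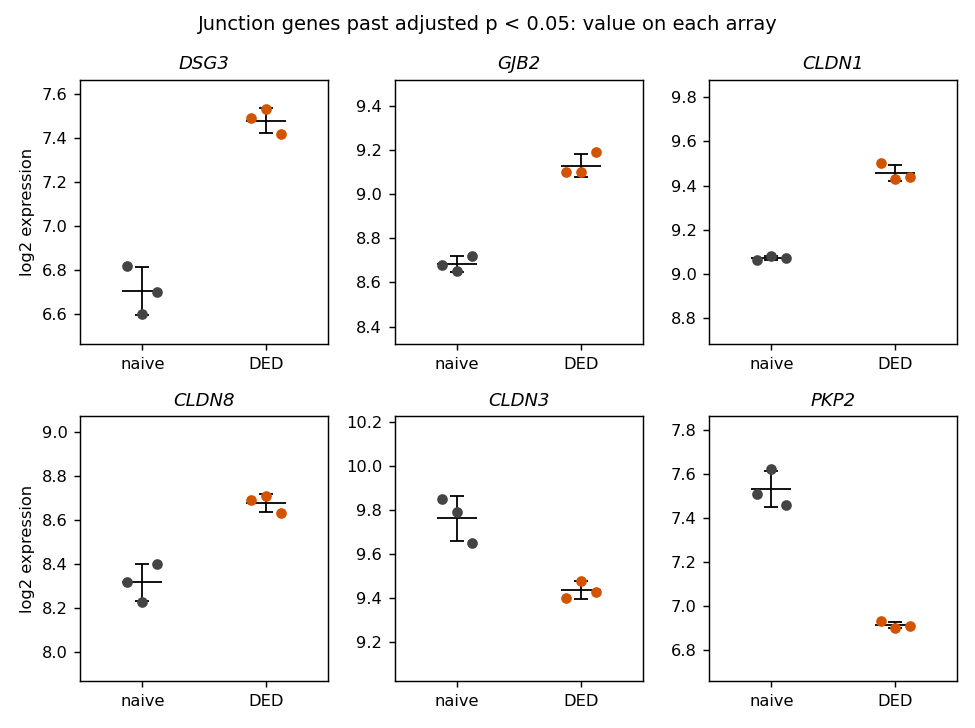
Log2 expression on each array (y axis, 1.2 units high in every panel) in the naive and DED groups for the 6 junction genes past an adjusted p under 0.05; points are arrays, bars the mean ± SD (n = 3). In no panel do the groups overlap, and PKP2 has the tightest DED group, at 6.90 to 6.93.

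Keratin genes that mark layers of epithelium were called on the same arrays. Of 12 measured epithelial markers (16 listed), KRT5, the keratin of basal cells, was higher by 0.59 (adjusted p = 0.00496) and KRT4, of mucosal upper layers, by 0.43 (0.0145), while KRT18 and KRT8, the pair of simple epithelia, were lower, at -1.26 (0.00123) and -0.37 (0.0202). The other 8 did not pass the test. Of these 8, KRT19 was above naive on every DED array, by 0.13. EPCAM at -0.20, EHF at -0.20, PAX6 at -0.15 and ELF3 at -0.06 were below naive on every DED array. TP63 at 0.06, ESRP1 at 0.01 and GRHL2 at -0.02 had overlapping groups. The mean log2 level of all 12 was 9.95 to 9.96 on the naive and 9.86 to 9.87 on the DED arrays. Of 7 genes of dividing cells, 6 were higher, with CDK1 at 1.37 and MKI67 at 1.06. The part of these in the values of DSG3 and PKP2 was not tested.

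Of the 23 claudin probe sets, those of CLDN1 and CLDN8 rose and that of CLDN3 fell, and no change was called for the other 20. CLDN1, a sealing claudin without which newborn mice lose water through the skin, was at 9.06, 9.08 and 9.07 in naive and at 9.50, 9.43 and 9.44 in DED conjunctiva. The naive arrays were nearly identical, and the closest DED array was 0.35 above them. The rise was 0.39 (SE 0.05, 1.31-fold; limma, adjusted p = 0.00923).

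CLDN8, a sealing claudin known from the distal tubule of the kidney and from the colon, was at 8.32, 8.23 and 8.40 in naive and at 8.69, 8.71 and 8.63 in DED conjunctiva. The groups were 0.23 apart at their closest, with a rise of 0.36 (SE 0.07, 1.28-fold; adjusted p = 0.0256). CLDN3, a sealing claudin of many glandular and simple epithelia, was at 9.85, 9.79 and 9.65 in naive and at 9.40, 9.48 and 9.43 in DED. CLDN3 fell by 0.33 on the log2 scale (SE 0.07, 1.25-fold; adjusted p = 0.045), with 0.17 between the groups. Neither call held when naive replicate 1 or 2 or any DED replicate was left out, and that of CLDN3 was also lost in the one-way analysis of variance: over all 16 alternatives the adjusted p was 7.26e-04 to 0.107 for CLDN8 and 0.00113 to 0.137 for CLDN3. On each array, CLDN1 minus CLDN3 had a mean of -0.69 in naive and 0.02 in DED, a shift of 0.71. The groups did not overlap (exact permutation test, p = 0.1), which follows from choosing the pair after the values were seen.

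CLDN4 and CLDN7, which like CLDN3 line many epithelia, did not pass the test. CLDN4 was at 9.87 ± 0.07 in naive and 9.80 ± 0.03 in DED conjunctiva (SD, n = 3), a difference of -0.07 (95% confidence interval -0.22 to 0.08). CLDN7 was at 10.52 ± 0.05 and 10.50 ± 0.01, a difference of -0.02 (-0.15 to 0.12). CLDN12 and CLDN23 differed by 0.08 and -0.07, again with overlap. CLDN4 lies next to CLDN3, and CLDN17 (0.09) next to CLDN8, in the same gene order.

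Several claudins best known from other organs had probe sets on the array. No detection limit was applied to any junction gene, so a low value does not show that the gene is expressed. CLDN2, a pore for cations and water in the kidney proximal tubule, was at 5.31, 5.49 and 5.86 in naive and at 5.87, 5.95 and 6.11 in DED conjunctiva. Only 0.01 separated the groups, since naive replicate 3 was high, and the difference of 0.42 (SE 0.15) had an adjusted p of 0.157. Without naive replicate 3 it was 0.58 and passed (adjusted p = 0.0463; 0.0463 to 0.316 over 16 alternatives). CLDN16, which with CLDN19 takes up magnesium in the loop of Henle, was at 3.77, 3.80 and 3.82 in naive and at 4.13, 4.02 and 4.40 in DED (difference 0.39, adjusted p = 0.081). These values are low: the mean of CLDN16 ranked at percentile 18 of all probe sets. CLDN19 differed by 0.00 (95% confidence interval -0.20 to 0.19).

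CLDN10, whose isoforms make pores for anions or cations, was at 6.67, 6.60 and 6.51 in naive and at 6.38, 6.27 and 6.41 in DED, lower on every DED array, with a difference of -0.24 (adjusted p = 0.106; 0.0498 without the 30% dimmest probe sets). CLDN11, the claudin of myelin and of Sertoli cells, was lower on every DED array as well, at -0.16 (adjusted p = 0.157). CLDN18, of stomach and lung, differed by -0.09 with overlapping groups. Kidney markers were also called on these arrays: of 11 markers of the proximal tubule 9 were higher and none lower, and their mean log2 level was 6.59 to 6.64 on the naive and 7.37 to 7.41 on the DED arrays. Of 4 measured markers of other tubule segments, UMOD (10.70 in naive, 11.56 in DED) and SLC12A1 were higher. Their part in the values of CLDN2, CLDN8 and CLDN16 was not tested.

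The remaining claudin probe sets, CLDN5, CLDN6, CLDN9, CLDN14, CLDN15, CLDN20, CLDN25 and both of CLDN22, differed by -0.24 to 0.24, and their groups overlapped. The probe sets of CLDN22 went opposite ways, at -0.24 and 0.12, neither past the test. CLDN9 had the widest spread of naive arrays among the 55, at 5.62, 6.35 and 5.97. CLDN5, the claudin of blood vessels, was at 7.30 ± 0.11 in naive and 7.17 ± 0.04 in DED conjunctiva (adjusted p = 0.371), on arrays where 2 of 8 measured endothelial markers, VWF at 0.87 and PECAM1 at 0.78, were higher and 6 did not pass. Of these 6, KDR at -0.11, ERG at -0.12 and TIE1 at -0.20 were below 0 with overlapping groups. SOX17 at 0.18 and EMCN at 0.07 were above 0 with overlap, and TEK at 0.29 was higher on every DED array (limma, adjusted p = 0.12). PECAM1 is also listed by the study under neutrophil degranulation, so it does not mark endothelium alone. The mean log2 level of the 8 markers was 5.74 to 5.81 on the naive and 5.95 to 6.05 on the DED arrays. The part of these markers in the value of CLDN5 was not tested.

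**Figure D3:**
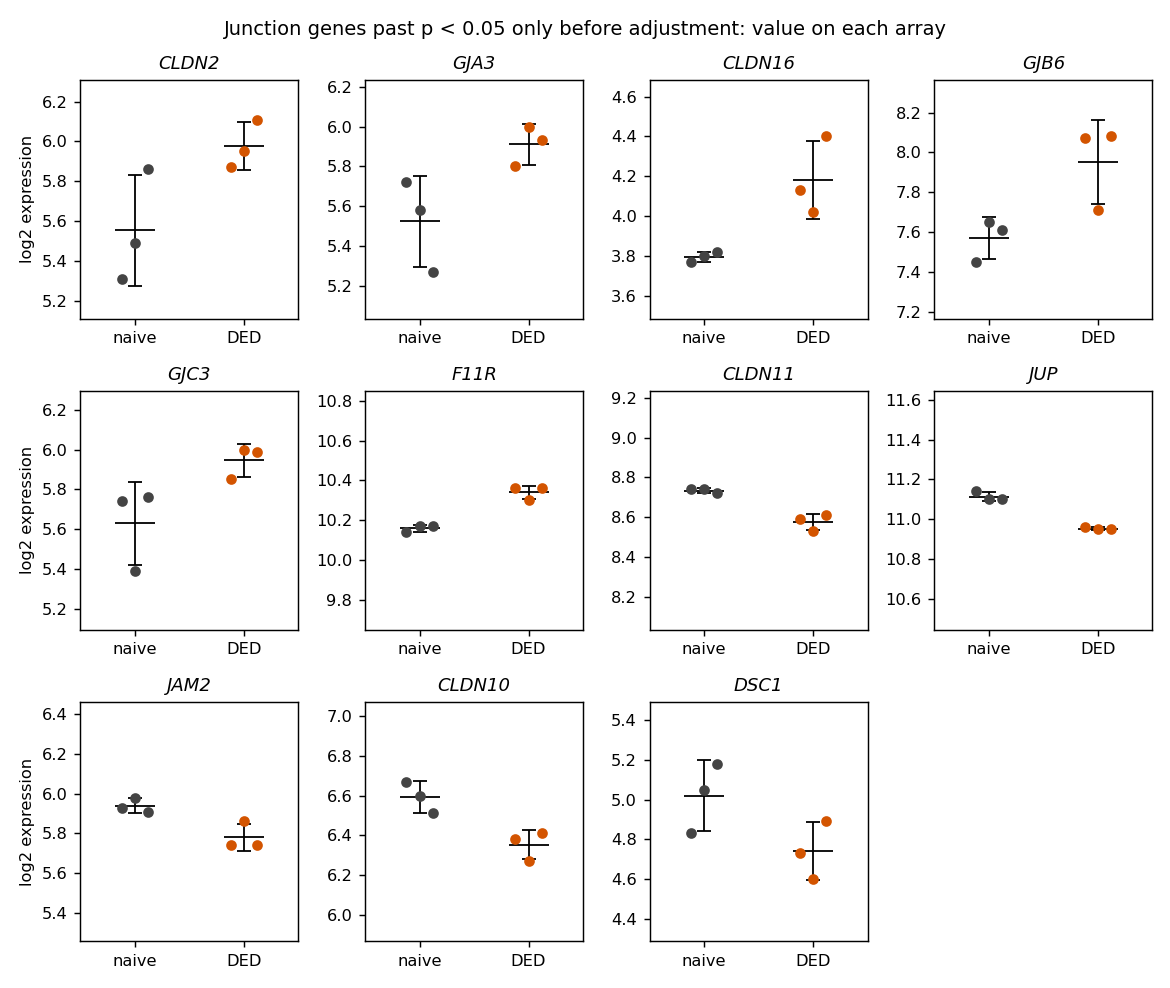
Log2 expression on each array (y axis, 1.2 units high in every panel) in the naive and DED groups for the 11 junction genes with an unadjusted p under 0.05 that did not pass after adjustment; points are arrays, bars the mean ± SD (n = 3). The groups meet within 0.01 for CLDN2 and overlap for DSC1, while JUP is narrow within both groups.

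None of the other tight junction membrane genes passed the test, and neither did the plaque genes. F11R, the junctional adhesion molecule JAM-A, was at 10.14, 10.17 and 10.17 in naive and at 10.36, 10.30 and 10.36 in DED conjunctiva. It was higher on every DED array, by 0.18 (SE 0.05; limma, adjusted p = 0.109), and passed the test in 3 of 16 alternatives: the one-way analysis of variance, the intensity trend and the fit without the 30% dimmest probe sets (adjusted p = 0.00356 to 0.256 over all of them). JAM2, a related molecule of endothelium, was lower on every DED array, at -0.16 (adjusted p = 0.197), and JAM3 differed by -0.05.

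OCLN, which encodes occludin, was at 8.02, 7.99 and 8.05 in naive and at 7.95, 8.01 and 8.08 in DED conjunctiva. These values overlap fully, and the difference was -0.01 (95% confidence interval -0.15 to 0.14). MARVELD2, or tricellulin, the protein of corners where cells meet, varied more between pools of one group (SD 0.29 in naive, 0.23 in DED) than between groups (-0.08). TJP1, the plaque protein ZO-1, differed by 0.04 (-0.09 to 0.17) and CGN, which encodes cingulin, by 0.00 (-0.18 to 0.19).

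Of 15 connexin genes, GJB2 rose and 14 did not pass the test. GJB2 encodes connexin-26, a channel of the epidermis and the cochlea whose loss causes deafness in humans. It was at 8.68, 8.65 and 8.72 in naive and at 9.10, 9.10 and 9.19 in DED conjunctiva. The groups were 0.38 apart at their closest, and the rise was 0.45 (SE 0.06, 1.36-fold; limma, adjusted p = 0.00722).

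GJB6, which encodes connexin-30, a partner of connexin-26 in skin and cochlea, was at 7.45, 7.65 and 7.61 in naive and at 8.07, 7.71 and 8.08 in DED. DED replicate 2 lay only 0.06 above the naive arrays. The difference was 0.38 (SE 0.12, adjusted p = 0.118), and without DED replicate 2 it was 0.51 and passed (adjusted p = 0.0397; 0.0213 to 0.276 over 16 alternatives). GJA3, the lens connexin-46, was at 5.72, 5.58 and 5.27 in naive and at 5.80, 6.00 and 5.93 in DED (difference 0.39, adjusted p = 0.132). GJA3, GJB2 and GJB6 are direct neighbours in the RefSeq gene order, and in all 3 the DED arrays lay above the naive arrays, as in 13.4% of all probe sets.

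GJA1, the widespread connexin-43 of epithelium and stroma, went the other way by a small amount. It was at 10.29 ± 0.03 in naive and 10.17 ± 0.04 in DED conjunctiva (SD, n = 3), with a difference of -0.12 (adjusted p = 0.277). On each array, GJB2 minus GJA1 had a mean of -1.61 in naive and -1.04 in DED, so the gap narrowed by 0.57. The groups did not overlap (exact permutation test, p = 0.1), which follows from choosing the pair after the values were seen. GJC3, a connexin gene expressed in Schwann cells, was higher on every DED array, at 0.32 (adjusted p = 0.167), and GJA10, of the retina, lower on every one, at -0.24 (adjusted p = 0.301). GJA4 and GJA5, connexins of blood vessels, differed by 0.06 and -0.05, and GJB1, of liver and myelin, by 0.00. The other 6, GJA9, GJC1, GJD2, GJD3, GJD4 and GJE1, differed by -0.09 to 0.24 with overlapping groups.

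Before adjustment, 17 of the 55 junction probe sets (30.9%) had p under 0.05 in limma, against 21.9% of all probe sets, and in 19 (34.5%) the groups did not overlap, against 27.8%. Of these 19, DED was above naive in 11 and below in 8, where 13.4% of all probe sets were above and 14.5% below. Of the 11 that passed only before adjustment, 6 were higher and 5 lower in DED. The SD between arrays of one group was at most 0.37 for any junction gene, with a median of 0.08 in naive and 0.10 in DED conjunctiva, close to 0.10 in both groups for all probe sets.

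Genes that work with these junctions were read from 6 further lists, which held 60 measured genes. None was higher by limma (6 at an unadjusted p under 0.05, and none in the one-way analysis of variance), and 4 were lower, 6.67% of the 60. Over all probe sets, 4.41% were higher and 2.69% lower. Of 23 genes of tight junction scaffolds and cell polarity, 3 fell. MAGI1, a scaffold that binds junction proteins, was at 7.44 in naive and 7.04 in DED (difference -0.40, adjusted p = 0.0469), AMOT, angiomotin, at 7.48 and 7.11 (-0.37, 0.0183), and CGNL1, or paracingulin, at 8.30 and 7.99 (-0.31, 0.0307). The median of this list was -0.11. With single arrays left out, the call of MAGI1 held only without DED replicate 3, that of AMOT only without naive replicate 1 and that of CGNL1 only without naive replicate 3 (adjusted p up to 0.137, 0.0727 and 0.105). The call of MAGI1 was also lost in the one-way analysis of variance (adjusted p = 0.111) and with a robust fit in eBayes (0.0509).

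Of 7 partners of the desmosome, PNN, a nuclear protein also found at desmosomes, fell by 0.30 on the log2 scale (adjusted p = 0.0421), a call lost with any 1 array left out, in the one-way analysis of variance (0.054) and with median centring (0.0514; adjusted p = 0.00227 to 0.128 over 16 alternatives). CDSN, corneodesmosin of cornified cells, differed by 0.26 (adjusted p = 0.0617). None passed among 15 adherens junction genes (largest CTNNA2 at 0.27, with CTNNB1, beta-catenin, at 0.02), 6 hemidesmosome genes (ITGA6 at 0.32, adjusted p = 0.0838), 7 tricellular and endothelial junction genes (MARVELD1 at -0.29) and 2 pannexins (PANX1 at -0.06).

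**Figure D4:**
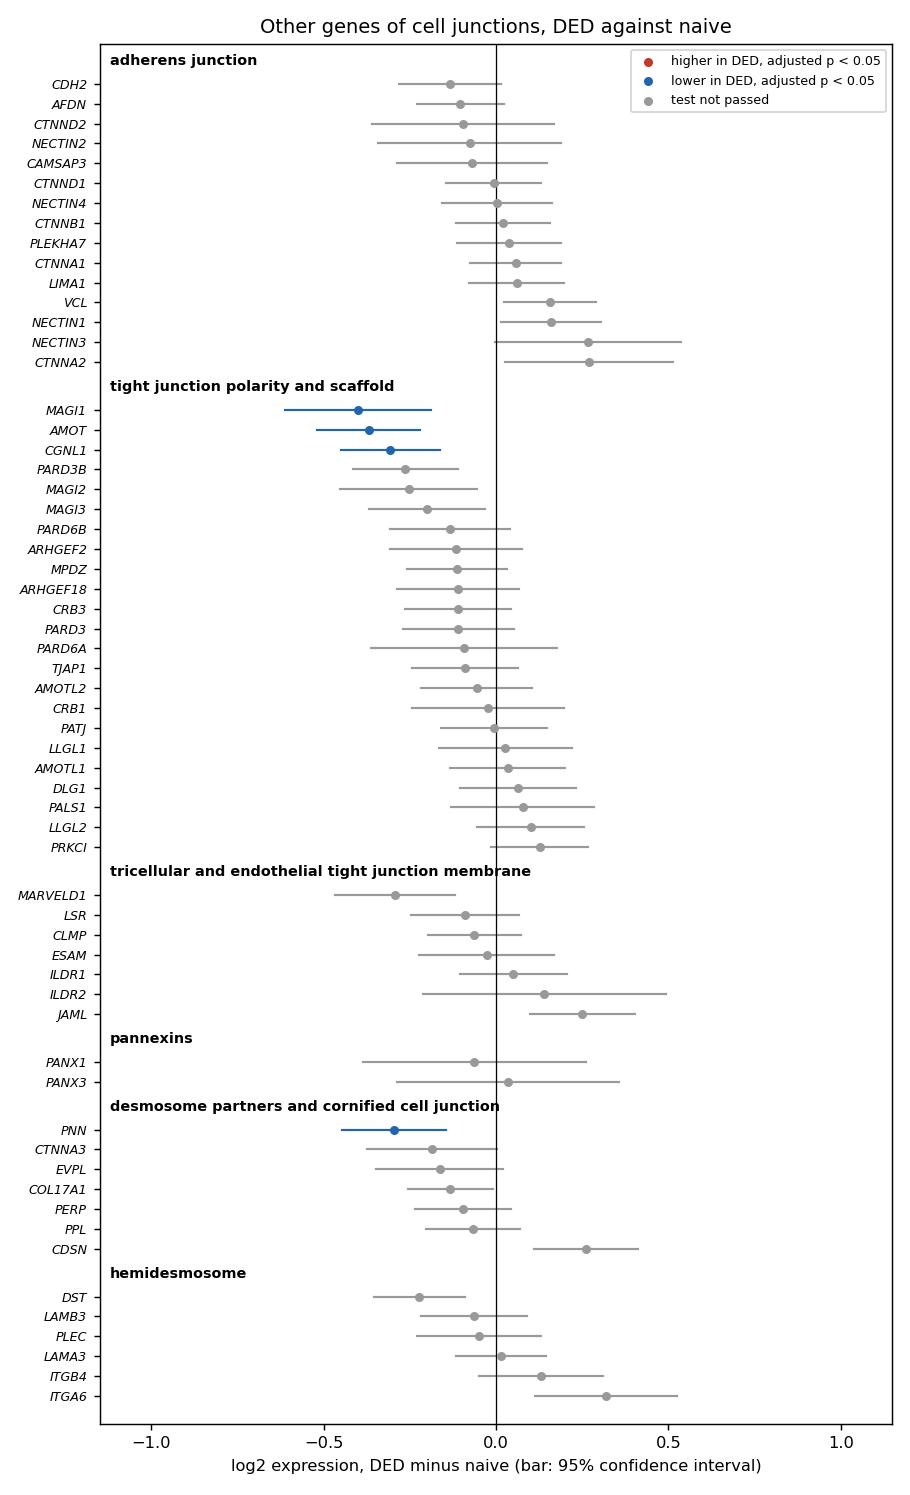
Difference in log2 expression, DED minus naive, for 60 other genes of cell junctions (x axis), grouped by list and ordered by difference; points are fitted differences, bars 95% confidence intervals from limma, blue points passed the test. The 4 genes past the test, MAGI1, AMOT, CGNL1 and PNN, lie between -0.40 and -0.30.

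The arrays agreed closely: r was 0.9938 to 0.9947 across probe sets within groups and 0.9883 to 0.9902 between them, and no 2 arrays held the same values. Markers of the labelled tissue were read in the naive group, KRT19 at 11.05, PAX6 at 10.81 and the goblet cell mucin MUC5AC at 10.11. Lists of other cell types held calls too. Of 5 goblet cell markers 2 were lower (mean log2 level 9.05 to 9.11 in naive, 8.82 to 8.90 in DED), and of 4 gland markers 3 were lower, led by PIP at -4.63. Of 7 leukocyte markers 5 were higher, and of 6 fibroblast markers 3 were higher and 1 lower. Of 5 melanocyte markers 3 were lower, of 4 adipocyte markers 1 was higher and 1 lower, and none of 5 smooth muscle, 2 striated muscle or 2 Schwann cell markers passed. The part of these lists in the junction values was not tested.

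**Figure D5:**
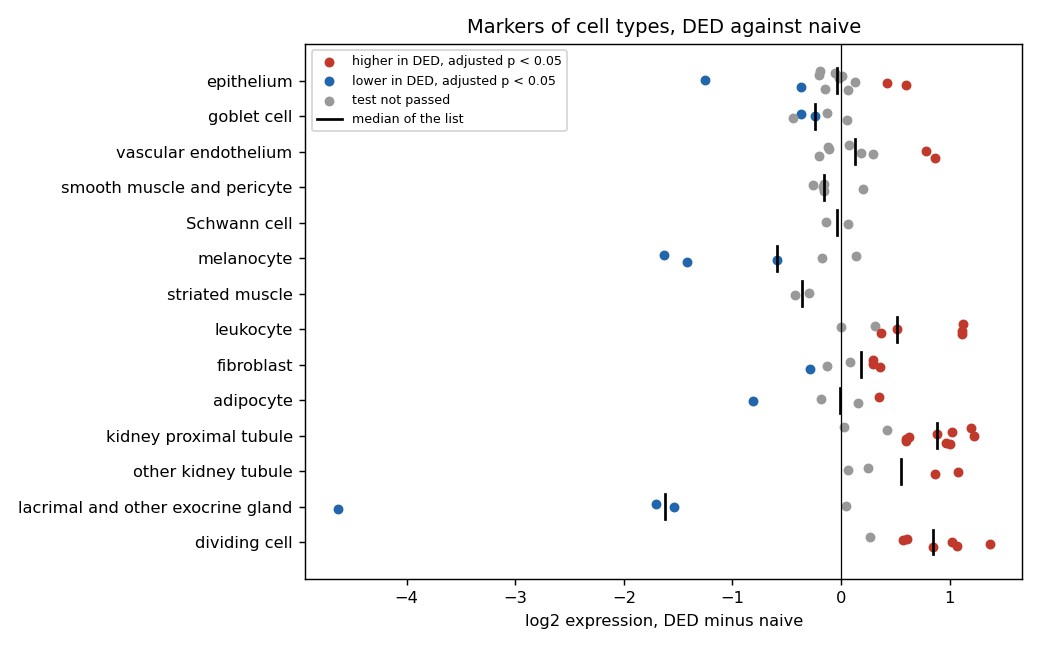
Difference in log2 expression, DED minus naive (x axis), of each measured marker gene of 14 cell type lists (rows); each point is a gene, red and blue points passed the test, black bars are list medians. The proximal tubule list has 9 of 11 genes higher, and PIP stands at -4.63 in the exocrine list.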

How the data were processed

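RNA of conjunctiva was hybridized to Affymetrix Rabbit Gene 1.0 ST arrays, 3 per group. The deposited log2 values were made by the authors with Robust Multi-chip Analysis in the Transcriptome Analysis Console (background correction, quantile normalization, probe summary) and are held to 2 decimals. Arrays therefore share nearly 1 distribution, and a shift of all genes together would not be seen. The number of arrays limits the precision. The DED and naive arrays were compared in limma 3.58.1 (R 4.3.3; lmFit, eBayes), with Benjamini-Hochberg adjustment over 23364 probe sets, and intervals are from the same fit. The statistics were tested on simulated data. Symbols came from the platform annotation, and 397 probe sets with several symbol entries were left out. In RefSeq, 52 of 54 junction genes were found by Entrez identifier. Genes with several probe sets in the further lists were read from the brightest. Gene order came from mOryCun1.1, and protein sequences were not used here. Named were all called members, the extremes of each group, and well-known markers of 1 cell type. The members and lists were chosen with earlier results of these data known. The p-values measure the spread between pools. There were 16 alternatives: median centring, a further quantile normalization, weights for arrays, an intensity trend or a robust fit in eBayes, the methods' analysis of variance, the replicate block, dropping each array in turn, testing only the brighter probe sets (30% left out) or only single-symbol ones, and averaging the probe sets of a symbol.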

Additional observations from a re-analysis of the deposited data

How the results depend on the processing

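DSG3, GJB2 and PKP2 passed the test under all 16 alternatives (adjusted p up to 0.026, 0.0453 and 0.0307), and CLDN1 under all but the replicate block (0.0639). No junction gene with an unadjusted p under 0.05 changed direction. With any 1 array left out, 3 to 5 junction probe sets were higher and 1 to 2 lower, 558 to 684 of all probe sets were higher and 264 to 344 lower, and 0 to 1 genes of the further lists were higher and 0 to 1 lower. With an intensity trend in eBayes, 1697 probe sets were higher and 1332 lower in all. In that fit 6 junction probe sets were higher (with F11R and GJB6) and 5 lower (with CLDN11, GJA1 and JUP). Of the further lists, 2 genes were higher and 8 lower. Without the 30% dimmest probe sets, 1391 probe sets were higher and 1092 lower in all, and 5 junction probe sets were higher and 3 lower. Of the further lists, 3 genes were higher and 7 lower, and with single-symbol probe sets only these were 2 and 7. In both, fewer probe sets were tested. Deviations of same-numbered arrays correlated at -0.06 to 0.02 over all probe sets, and those of other pairs at -0.05 to 0.06. A factor shared by same-numbered arrays in only some probe sets would not show in these values. Under the replicate block, which uses up 2 degrees of freedom, 2 junction probe sets were higher (DSG3, GJB2) and 1 lower (PKP2), 490 of all were higher and 199 lower, and 0 genes of the further lists were lower (MAGI1 at an adjusted p of 0.108, PNN at 0.0991). The causes of these shifts were not tested. Without the dimmest probe sets, CLDN16 and DSC1, among others, had no value.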

Other observations

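Expression was also read by 3 probe sets that had more than 1 annotation entry and were left out above. One annotated to both DSC2 and DSC3, desmocollins of epithelium, was at 9.32, 9.27 and 9.36 in naive and at 9.58, 9.50 and 9.53 in DED conjunctiva, higher on every DED array by 0.22 (limma, adjusted p = 0.0789). One annotated to both CDH1 and CDH3, classical cadherins of epithelium, was at 8.30 ± 0.05 in naive and 8.45 ± 0.02 in DED (SD, n = 3), a difference of 0.14 (adjusted p = 0.201), also without overlap. One annotated to 2 gene identifiers under the symbol CXADR, an adhesion protein that serves as a virus receptor, differed by -0.05 with overlapping groups (adjusted p = 0.746).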
